A study of Mus musculus with 8 samples.

Results

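The intercalated disc is the end-to-end contact between heart muscle cells, and 10 genes that encode its junctions were followed through the hearts of WT mice and mice with whole-body TIGAR knockout (TKO) after myocardial infarction (MI). The genes were taken by symbol from the count table: the connexins *Gja1*, *Gja5*, and *Gjc1* of gap junctions, the desmosome genes *Dsp*, *Dsg2*, *Dsc2*, *Pkp2*, and *Jup*, and the adherens junction genes *Cdh2* and *Ctnna3*. All 10 of 10 symbols were found among 16994 genes, and all 10 had a mean of at least 1 CPM (the count scaled to a library total of 1000000) and were tested among 12999 such genes. MI was induced in male mice of 16 weeks by tying off the left anterior descending artery for good, and the time from MI to the collection of the sequenced tissue is not given in the sources used here. The 8 bulk RNA libraries hold 1 for each pairing of genotype (WT or TKO) with a tissue label, namely left ventricle, infarct zone, border zone, or remote zone. The RNA of 3 mice was pooled for each infarct zone library, and the number of mice behind the other libraries, and whether the left ventricle libraries came from operated mice, is not given in the sources used here. The knockout was in every cell type, so a change cannot be assigned to heart muscle cells by the genotype. TIGAR, the protein removed, is a phosphatase that restrains glycolysis.

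The disc holds 3 kinds of junction. Gap junctions are channels built of connexins that carry the electrical impulse from cell to cell. Desmosomes anchor the intermediate filaments, and adherens junctions anchor the thin filaments of the contractile apparatus, and in heart muscle the parts of both mix in 1 composite structure. Inherited defects of the desmosome genes are a known cause of arrhythmogenic cardiomyopathy, and loss or lateral displacement of connexin 43 is a known feature of infarcted heart muscle.

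Total counts lay between 27429240 and 33799249 per library. *Tigar*, the deleted gene, had 1066 to 2215 counts in the 4 WT libraries and 51 to 87 in the 4 TKO libraries. The groups did not overlap, and each library matched the genotype in its label. *Tigar* does not check the region in a label. Values below are CPM scaled by trimmed mean of M values (TMM), and the TMM factors of both infarct zone libraries, 1.54 in WT and 1.26 in TKO, stood above the 0.866 to 0.956 of the other 6. The 10 cardiomyocyte markers, all above 3 counts in every library, summed to 32310 CPM in the WT and 35580 CPM in the TKO left ventricle, and to 8585 and 16170 CPM in the infarct zones. The 7 fibroblast markers summed to 761 and 871 CPM in the left ventricles and to 6628 and 5536 CPM in the infarct zones, and the 5 leukocyte markers to 249 and 218 CPM and to 1204 and 901 CPM. In bulk tissue, fewer cells of a type and less RNA per cell cannot be told apart. The part of these cell type markers in the results below was not tested.

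The upstream sequences of 4 members are shown because their genes behaved in 3 different ways: *Dsp* and *Jup* were lower in the infarct zone, *Gja5* was not, and *Gja1* differed most between the left ventricle libraries. Each is the 250 bases before the RefSeq transcription start on GRCm38.p6, 5′ to 3′ on the gene's strand, with capitals marking matches to the searched motifs. The window is chr10:56377050-56377299 (plus strand) for *Gja1*, chr3:97032152-97032401 (plus strand) for *Gja5*, chr13:38151044-38151293 (plus strand) for *Dsp*, and chr11:100397791-100398040 (minus strand) for *Jup*.
Gja1 promoter: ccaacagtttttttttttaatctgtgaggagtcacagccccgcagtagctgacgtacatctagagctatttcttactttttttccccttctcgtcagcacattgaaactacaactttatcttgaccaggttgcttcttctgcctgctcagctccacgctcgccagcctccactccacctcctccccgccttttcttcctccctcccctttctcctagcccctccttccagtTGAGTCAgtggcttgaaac
Gja5 promoter: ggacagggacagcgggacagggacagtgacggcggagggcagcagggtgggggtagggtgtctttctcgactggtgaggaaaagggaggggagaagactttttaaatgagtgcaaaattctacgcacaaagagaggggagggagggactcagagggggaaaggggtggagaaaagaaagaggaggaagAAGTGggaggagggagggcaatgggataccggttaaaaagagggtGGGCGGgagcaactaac
Dsp promoter: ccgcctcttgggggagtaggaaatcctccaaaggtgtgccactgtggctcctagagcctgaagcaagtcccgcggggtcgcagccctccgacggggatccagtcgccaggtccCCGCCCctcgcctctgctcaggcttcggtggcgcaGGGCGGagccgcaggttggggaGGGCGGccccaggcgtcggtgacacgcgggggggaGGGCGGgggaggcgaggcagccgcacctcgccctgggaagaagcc
Jup promoter: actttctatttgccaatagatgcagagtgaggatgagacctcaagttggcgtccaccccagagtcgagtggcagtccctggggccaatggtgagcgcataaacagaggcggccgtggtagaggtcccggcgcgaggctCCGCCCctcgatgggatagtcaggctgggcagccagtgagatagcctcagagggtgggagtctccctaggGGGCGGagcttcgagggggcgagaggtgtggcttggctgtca

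The motifs were searched on both strands as GGTGTGA (T-box factors), AAGTG (NKX2-5), GGGCGG (SP1), TGANTCA (AP-1), and TATAAA (the TATA box), none of which overlapped another in these windows. Of 32851 RefSeq promoters cut to the same 250 bases, 3.33%, 40.7%, 32.7%, 6.75%, and 12.4% held them, in that order. The *Dsp* window held 4 SP1 matches and the *Jup* window 2, and their G and C content was 72.4% and 62.0%, against a median of 52.4% over all promoters. *Gja1* held 1 AP-1 match, 19 to 13 bases before the start, and no SP1 match. *Gja5* held 1 SP1 and 1 NKX2-5 match, and no T-box match. A match is a run of letters and not a shown binding site. RefSeq promoters were found for 5 of the 10 members. The fifth, *Ctnna3*, also lower in the infarct zone, had 3 alternative promoters. Their G and C content was 67.6%, 44.8%, and 45.6%, and they held 1 SP1, 1 NKX2-5, and 1 TATA match, in that order. A link between these motifs and the levels of the genes was not tested.

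Levels of different genes were compared as CPM per kb of the longest principal transcript. *Dsp*, which encodes desmoplakin, the linker between the desmosomal plaque and desmin filaments, ranged from 33.3 to 124 CPM per kb and was the highest member in every library but the TKO left ventricle and the WT infarct zone. In those 2 libraries *Gja1* (connexin 43, the main connexin of working ventricular muscle) was highest, at 133 and 42.4 CPM per kb, the ends of its range. *Jup*, *Cdh2*, and *Pkp2* followed at similar levels, with 62.2, 60.5, and 61.0 CPM per kb in the WT left ventricle. *Dsg2*, *Gjc1*, *Dsc2*, and *Ctnna3* were lower, at 15.6, 8.11, 7.01, and 4.74 CPM per kb in that library. *Gja5* was at 1.82 to 2.57 CPM per kb over the 8 libraries, the lowest member in each but the WT infarct zone, where *Ctnna3* was lower. These orders come from single libraries, and neighbours such as *Jup*, *Pkp2*, and *Cdh2* changed places between libraries.

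**Figure D1:**
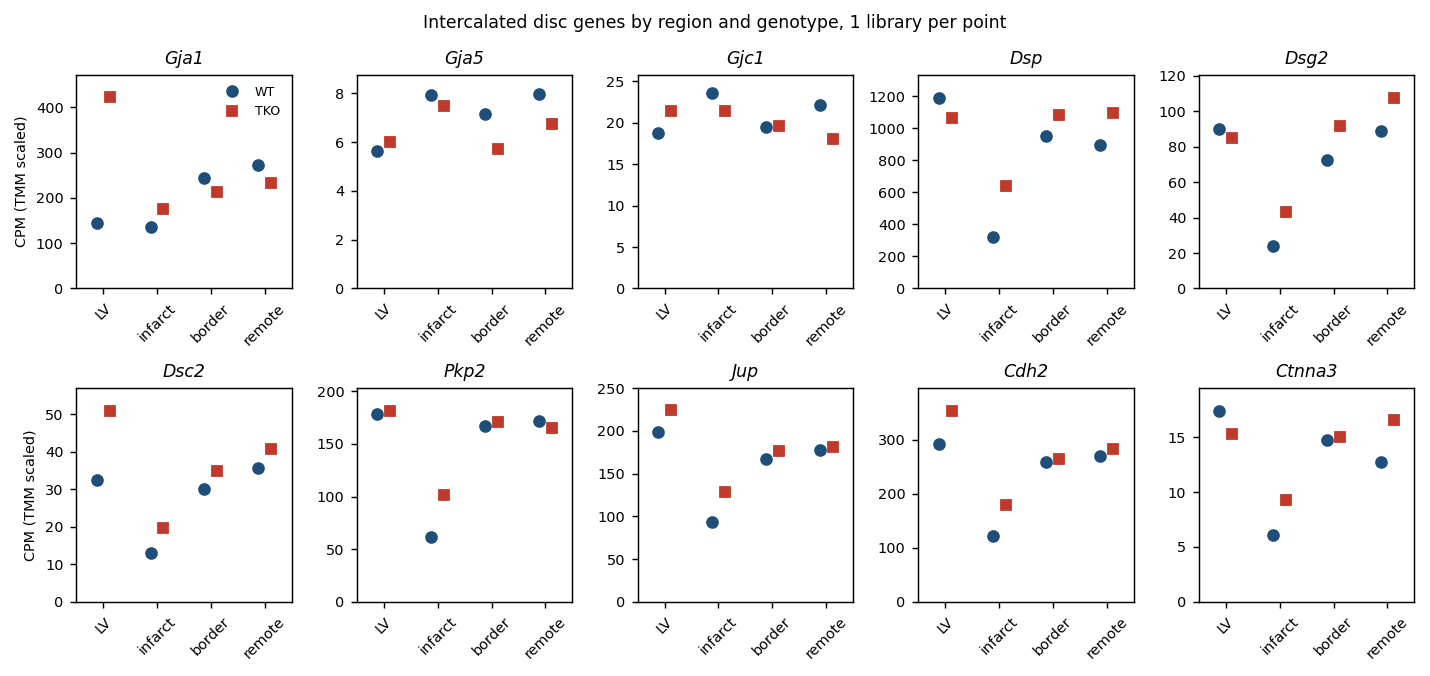
Expression of each member in CPM (y axis, from 0, TMM scaled) by region (x axis), with 1 point for each library, blue circles for WT and red squares for TKO. The 5 desmosome and 2 adherens junction genes were lowest in both infarct zones, while *Gja5* and *Gjc1* were not, and *Gja1* was highest in the TKO left ventricle (422 CPM) and low in the WT left ventricle (145 CPM).

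The first comparison asked how the junction genes differed between the infarct zone and the left ventricle in both genotypes. All 5 desmosome genes and both adherens junction genes were lower in the infarct zone, and none of the 3 connexins was called. The quasi-likelihood test of edgeR was fitted on all 8 libraries with genotype as a block and p-values adjusted over all genes (Benjamini-Hochberg), and 7 of 10 members fell against 28.6% of all genes, and 0 of 10 rose against 28.2% of all genes. The test rests on 2 libraries a region, so it bears on these pools and not on single mice. The members were chosen with earlier results of these data known, so the counts describe them and are no independent test of the list.

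*Dsg2* and *Dsc2* encode desmoglein-2 and desmocollin-2, the cadherins that bridge the desmosomal gap. *Dsg2* was at 89.8 CPM in the WT and 85.1 CPM in the TKO left ventricle, and at 24.1 CPM and 42.9 CPM in the infarct zones. It fell by 1.44 ± 0.208 (SE) on the log2 scale (adjusted p = 0.00211), the largest fall among the members. *Dsc2* had 32.5 CPM and 50.8 CPM in the WT and TKO left ventricle and 13.1 CPM and 19.6 CPM in the infarct zones, with no overlap between the regions, and fell by 1.35 ± 0.147 (adjusted p = 0.00107). The ratio of *Dsc2* to *Dsg2* counts was 0.362 in the WT left ventricle and 0.597 in the TKO left ventricle, and 0.542 and 0.458 in the infarct zones. This ratio stayed between 0.380 and 0.417 in the border and remote zones.

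The plaque of the desmosome is built from armadillo proteins and desmoplakin. *Dsp* was at 1188 CPM in the WT left ventricle and 1062 CPM in the TKO left ventricle, and at 319 CPM and 636 CPM in the infarct zones, a fall of 1.30 ± 0.284 on the log2 scale (adjusted p = 0.00881). *Pkp2* (plakophilin-2) was at 178 CPM and 182 CPM in the left ventricles and at 61.9 CPM and 102 CPM in the infarct zones, a fall of 1.16 ± 0.206 (adjusted p = 0.00412). *Jup* (plakoglobin, shared by desmosomes and adherens junctions) had 199 CPM and 225 CPM in the left ventricles and 93.4 CPM and 129 CPM in the infarct zones. It fell by 0.94 ± 0.144 (adjusted p = 0.00241), the smallest fall of the 7 genes called.

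The adherens junction genes moved in the same direction. *Cdh2* (N-cadherin, the classical cadherin of heart muscle) was at 293 CPM and 355 CPM in the left ventricles and at 122 CPM and 179 CPM in the infarct zones, a fall of 1.12 ± 0.167 on the log2 scale (adjusted p = 0.00226). *Ctnna3* (αT-catenin, which ties cadherins to actin and also binds plakophilin-2) had 17.4 CPM and 15.3 CPM in the left ventricles and 6.10 CPM and 9.32 CPM in the infarct zones, a fall of 1.11 ± 0.201 (adjusted p = 0.00429). For each of the 7 genes, both infarct zone libraries lay below all 6 others. The share of all genes that did so is not given here, so this describes the members only. Over the 8 libraries the log2 CPM of these 7 genes correlated with each other at Pearson's r of 0.904 to 0.996, a description over libraries that share regions and scaling.

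The connexins did not move as a block. *Gja5* (connexin 40, a connexin of the atria, the conduction system, and arterial endothelium) had 5.66 and 6.02 CPM in the left ventricles and 7.92 and 7.50 CPM in the infarct zones, a difference of 0.40 ± 0.167 on the log2 scale (adjusted p = 0.0837). *Gjc1* (connexin 45, the connexin of nodal cells and of the early heart) had 18.8 and 21.4 CPM in the left ventricles and 23.5 and 21.4 CPM in the infarct zones, a difference of 0.16 ± 0.132 (adjusted p = 0.329). For both genes the 2 infarct zone values lay above the 2 left ventricle values, though for *Gjc1* the nearest pair, both TKO, had almost the same level. *Gja1* had 145 and 422 CPM in the left ventricles and 135 and 176 CPM in the infarct zones, a difference of -0.80 ± 0.420 (adjusted p = 0.147), with overlap between the regions.

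The TMM scaling bears on these directions. With library totals alone, the median of all genes shifted from 0.019 to 0.705 on the log2 scale, 60.5% of all genes were called higher and 8.34% lower, and 5 members fell and 2 rose. The 2 that rose were *Gja5* (1.08, adjusted p = 0.00275) and *Gjc1* (0.85, adjusted p = 0.00254), and the 2 no longer called were *Jup* (-0.27, adjusted p = 0.0911) and *Ctnna3* (-0.43, adjusted p = 0.0629). Relative to the median shift under that scaling, the desmosome genes stayed on the low side and *Gja5* and *Gjc1* on the high side of the typical gene.

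The *Gja1* result turned on the left ventricle libraries. Without the WT left ventricle library, *Gja1* was called lower at -1.45 (adjusted p = 0.00598) and the count of members that fell was 8, against 25.8% of all genes, and without the TKO left ventricle library its difference was 0.11. Set against the mean of the other 3 regions, a contrast added after the values were seen, 7 members fell, the same genes, against 29.3% of all genes, and *Gja1* was at -0.71 ± 0.353 (adjusted p = 0.125). Against the remote zone, *Gja1* in the infarct zone was 0.493-fold in WT (95% counting interval 0.477 to 0.510) and 0.759-fold in TKO (0.733 to 0.785). Against the border zone it was 0.550-fold (0.531 to 0.569) in WT and 0.826-fold (0.797 to 0.855) in TKO.

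**Figure D2:**
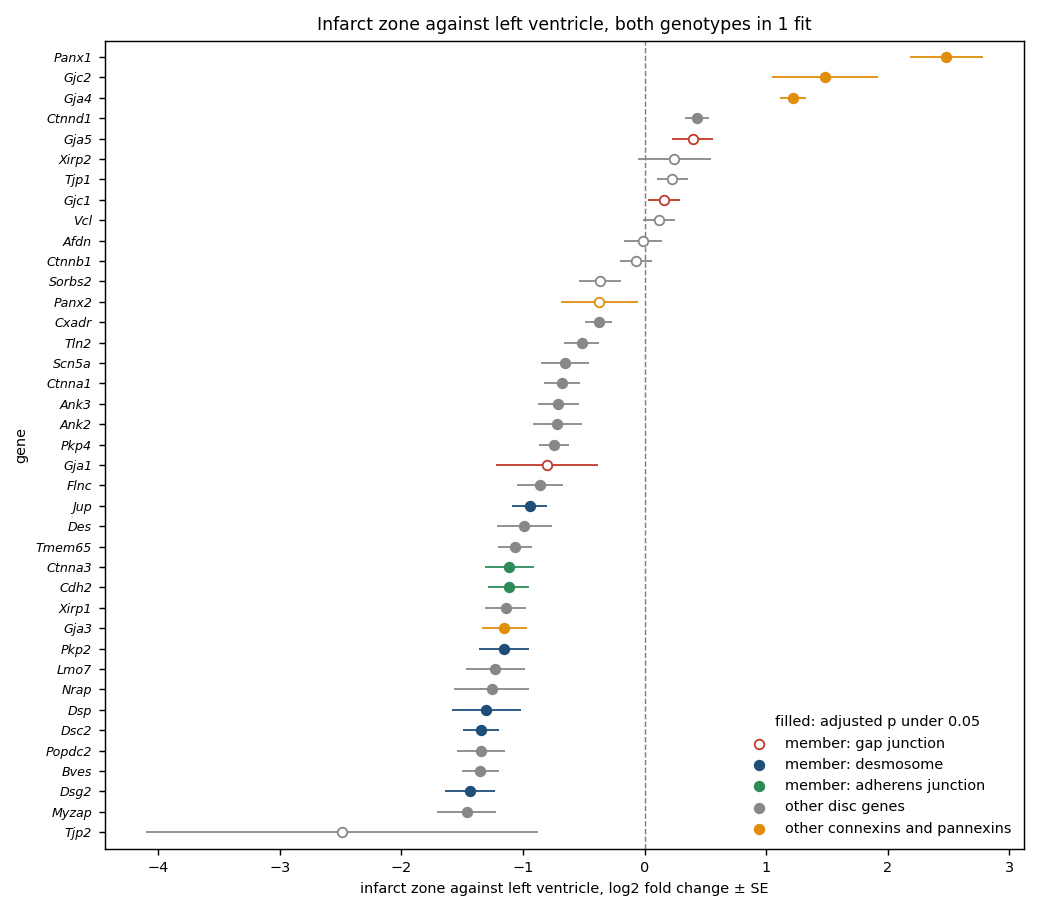
Log2 fold change of the infarct zone against the left ventricle (x axis, bars ± SE) for the members, the other disc genes, and the other connexins and pannexins with at least 1 CPM (y axis, 1 gene per row), with filled symbols for an adjusted p under 0.05. The 7 desmosome and adherens junction members lie between -1.44 and -0.94, *Gja1*, *Gjc1*, and *Gja5* are open symbols, and *Gja4* and *Panx1* lie at 1.22 and 2.48.

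Other genes of the disc were read from a list of 25, of which 24 had at least 1 CPM. In the same fit 16 fell, against 28.6% of all genes, 1 rose, against 28.2%, and 7 were not called. Their median was -0.71 against 0.02 for all genes. *Myzap* (myozap, a disc protein that binds desmoplakin) fell by 1.46 ± 0.243 (adjusted p = 0.00322), and *Bves* (a Popeye domain membrane protein) fell by 1.35 ± 0.154 (adjusted p = 0.0012). At the other end, *Ctnnd1* (p120-catenin, which stabilizes cadherins at the membrane) rose by 0.43 ± 0.098 (adjusted p = 0.0102). *Xirp2* (0.25, adjusted p = 0.513) and *Tjp1* (zonula occludens 1, which binds connexin 43; 0.23, adjusted p = 0.166) were not called.

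Of 20 other connexins and pannexins, 15 were in the table and 5 reached 1 CPM. *Gja4* (connexin 37, an endothelial connexin) rose by 1.22 ± 0.110 (adjusted p = 0.000639), and *Panx1* (pannexin 1, an ATP release channel) by 2.48 ± 0.300 (adjusted p = 0.00136). *Gja3* (connexin 46) fell by 1.15 ± 0.183 (adjusted p = 0.00273), and *Panx2* was at -0.37 ± 0.318 (adjusted p = 0.35). Of the 5 genes, 3 rose and 1 fell, against 28.2% and 28.6% of all genes, with a median of 1.22. Of 12 desmosome genes known mainly from epithelia, 8 were in the table and 3 reached 1 CPM. Of these 3, 1 rose and 1 fell, near the same shares of all genes.

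Within 1 library, a ratio of 2 genes does not depend on how libraries are scaled, so each member was set against the mean log2 count of the 10 cardiomyocyte markers. From the left ventricle to the infarct zone, *Dsp* and *Dsg2* each changed 1.02-fold against the markers in WT, and 1.25-fold and 1.05-fold in TKO. *Cdh2*, *Dsc2*, *Ctnna3*, and *Pkp2* were at 1.58-fold, 1.53-fold, 1.33-fold, and 1.32-fold in WT, and at 1.05-fold, 0.807-fold, 1.27-fold, and 1.17-fold in TKO. In WT the connexins moved furthest from the markers: *Gja5* was 5.33-fold, *Gjc1* 4.77-fold, and *Gja1* 3.54-fold higher against them than in the left ventricle. In TKO *Gja5* was 2.60-fold and *Gjc1* 2.09-fold higher, and *Gja1* was at 0.871-fold. The *Gja1* values rest on left ventricle libraries at 145 CPM in WT and 422 CPM in TKO. In the remote zone *Gja1* was at 2.3-fold in WT and 0.619-fold in TKO against the markers. Back in the infarct zone, *Jup*, the member found in 2 kinds of junction, was at 1.78-fold in WT and 1.20-fold in TKO. The infarct zone median over the 10 members was 1.55-fold in WT and 1.18-fold in TKO. These are values of single libraries without a test, and other cell types also express some members, *Jup* and *Cdh2* among them.

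**Figure D3:**
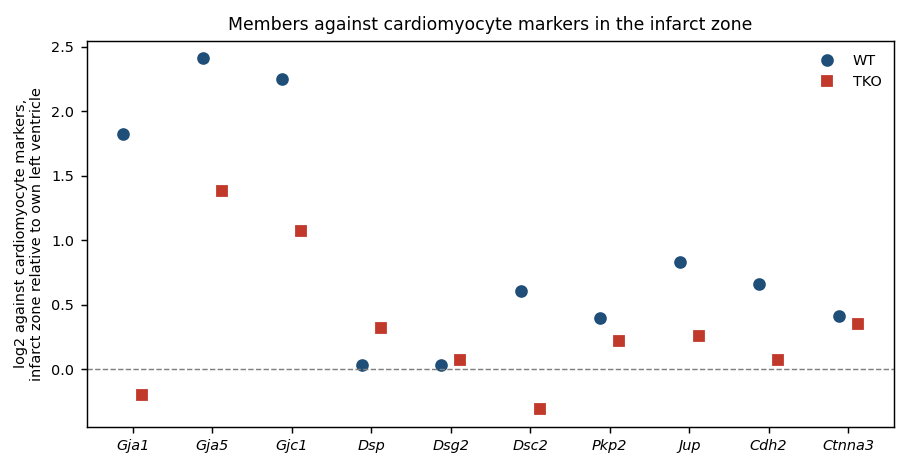
Change of each member against the mean of the 10 cardiomyocyte markers, from the left ventricle to the infarct zone of the same genotype (y axis, log2), for each member (x axis), with 1 point for WT (blue circle) and 1 for TKO (red square). In WT *Gja5*, *Gjc1*, and *Gja1* lie highest at 2.41, 2.25, and 1.82, *Dsp* and *Dsg2* lie at 0.03, and the other members lie between 0.4 (*Pkp2*) and 0.83 (*Jup*).

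The border and remote zones were then set against the left ventricle. No member was called in the border zone (0 of 10, against 0.715% of all genes) or in the remote zone (0 of 10, against 0% of all genes) by edgeR's quasi-likelihood test, and 0 members had an unadjusted p under 0.05 in either. DESeq2 also called 0 members in both, with 1 unadjusted p under 0.05 for the border zone, 0 for the remote zone. The fitted differences ran from -0.33 (*Dsc2*) to 0.14 (*Gja5*) in the border zone, and the remote zone gave -0.24 (*Jup*) to 0.33 (*Gja5*). Single-library ratios of at least 2-fold were seen for 0 of 10 members in each of the 4 comparisons, against 7.22% (WT) and 6.06% (TKO) of all genes in the border zone and 5.49% and 4.58% in the remote zone.

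Markers of atrial muscle were set beside *Gja5*, and their order depended on 1 of them. The 6 atrial markers summed to 189, 3046, 1726, and 2569 CPM in the WT left ventricle, infarct, border, and remote zones, and to 300, 2093, 495, and 704 CPM in TKO. *Gja5* was at 5.66, 7.92, 7.17, and 7.99 CPM in WT and at 6.02, 7.50, 5.73, and 6.74 CPM in TKO. Most of the atrial sum was *Nppa*, with 2987 of 3046 CPM in the WT and 2086 of 2093 CPM in the TKO infarct zone. Without *Nppa*, a choice made after seeing the data, the other 5 markers summed to 16.1, 58.8, 51.7, and 607 CPM in WT and to 19.8, 7.11, 26.8, and 215 CPM in TKO. In TKO these 5 were lowest in the infarct zone, where *Gja5* was highest, and in WT both were lowest in the left ventricle and highest in the remote zone. Of the 6 atrial markers, 1 was at 3 counts or fewer in the TKO infarct zone, none was in the other libraries, and 1 of them, *Nppa*, is also known to rise in stressed ventricle. The 5 arterial endothelial markers, *Gja4* among them, ranged from 70.3 to 92.9 CPM and the 6 conduction system markers from 52.7 to 105 CPM. The part of atrial or other cells in the *Gja5* values was not tested.

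The study's question was how the absence of TIGAR changes the infarcted heart, and the genotypes were compared across the 4 regions with region as a block. The regions stood in as replicates of a genotype, so the test and its SE bear on these pools and not on the spread between mice. None of the 10 members was called by edgeR (0 of 10, against 0.138% of all genes), and DESeq2 also called 0 of 10. Its count over all genes is given at the end. An unadjusted p under 0.05 was reached by 1 member with edgeR and by 3 with DESeq2. Outside the remote zone comparison, the share of all genes at that unadjusted cutoff is not given here, so such counts are not read further. Fitted differences ran from -0.14 ± 0.118 for *Gja5* and -0.06 ± 0.093 for *Gjc1* to 0.41 ± 0.103 for *Dsc2* (adjusted p = 0.197). *Dsp* and *Dsg2* were at 0.33 ± 0.198 and 0.34 ± 0.144, and *Gja1* at 0.36 ± 0.302 (adjusted p = 0.566). *Dsc2*, *Jup*, and *Cdh2* were above 1 as TKO over WT in all 4 regions, as were 13.2% of all genes, though with library totals *Jup* and *Cdh2* were at 0.986 and 0.955 in the border zone.

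In the infarct zone, TKO over WT was above 1 for 8 of 10 members, against 50.8% of all genes, with a median of 1.49 beside 1.005 for all genes. With library totals the members' median was 1.21, with the same count. *Dsp* had 13492 counts in WT and 22736 in TKO, a ratio of 1.99 (95% counting interval 1.95 to 2.04), the highest of the members. *Dsg2* was at 1.78 (1.65 to 1.93), *Pkp2* at 1.64 (1.56 to 1.73), *Ctnna3* at 1.53 (1.29 to 1.80), and *Dsc2* at 1.51 (1.34 to 1.69). *Cdh2*, *Jup*, and *Gja1* followed at 1.47, 1.38, and 1.31, and *Gja5* (0.947, 0.803 to 1.12) and *Gjc1* (0.910, 0.827 to 1.001) had intervals that held 1. The 10 cardiomyocyte markers were all above 1 in the same pair of libraries, with a median of 1.91. No member reached 2-fold, against 3.87% of all genes. The intervals cover counting error and not the spread between mice.

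Whether the genotype difference in the infarct zone departed from that of the other 3 regions was tested by a genotype by infarct zone term. edgeR called 0 of 10 members, against 0.00769% of all genes. *Dsp* was at 0.89 ± 0.222 and *Pkp2* at 0.72 ± 0.150, both with an adjusted p of 0.41, and DESeq2 called those 2 members (adjusted p = 0.00746 and 0.00918), against 2.22% of all genes. The term rests on 1 WT and 1 TKO infarct zone library and leaves 2 residual degrees of freedom.

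**Figure D4:**
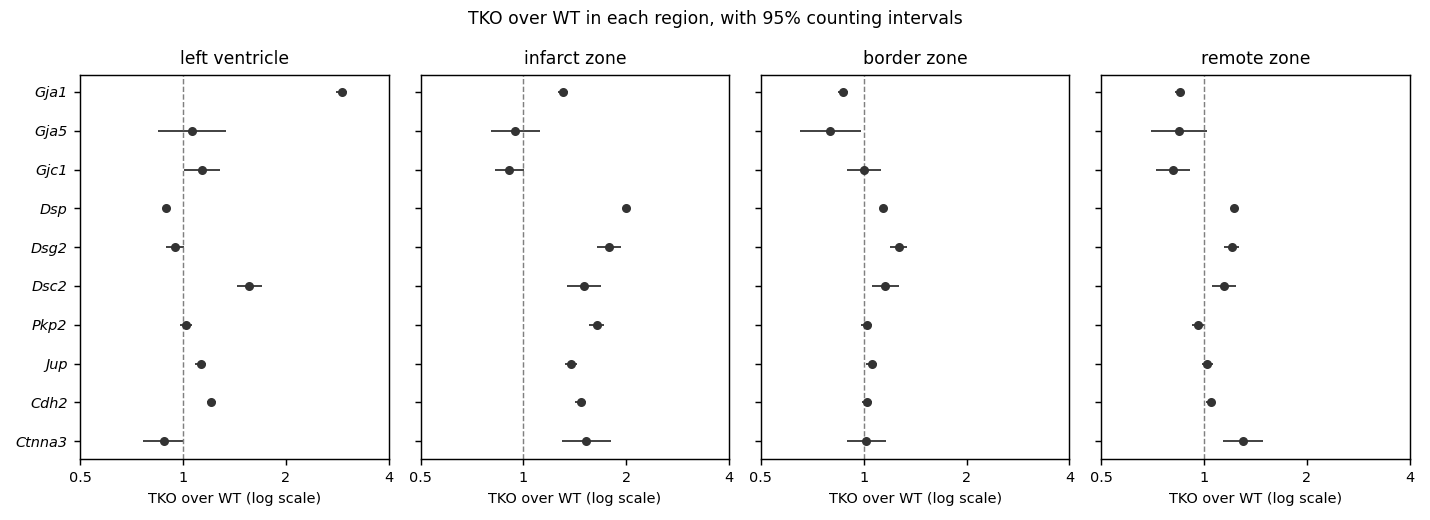
TKO over WT (x axis, log scale) of each member (y axis) in 1 panel for each region, with bars for the 95% counting interval and a dashed line at 1. In the infarct zone the desmosome and adherens junction genes lie between 1.38 and 1.99, in the left ventricle *Gja1* lies at 2.91, and in the border and remote zones all 10 lie between 0.799 and 1.30.

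The left ventricle gave the only member with a difference of at least 2-fold between genotypes in any region. *Gja1* had 3969 counts in the WT and 10929 in the TKO left ventricle library, a ratio of 2.91 (2.81 to 3.02), while 5.51% of all genes differed 2-fold there. *Dsc2* followed at 1.56 (1.44 to 1.70) and *Cdh2* at 1.21 (1.18 to 1.25), and *Dsp* was at 0.894 (0.880 to 0.909). In the border and remote zones *Gja1* was lower in TKO, at 0.870 (0.841 to 0.900) and 0.849 (0.822 to 0.876). A difference of 2-fold was reached by 0 of 10 members in the border zone, against 4.48% of all genes, and by 0 of 10 in the remote zone, against 3.53%.

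The genotype by left ventricle term, added after these values were seen, called 0 of 10 members by edgeR, against 0.646% of all genes. *Gja1* was at 1.56 ± 0.304 (adjusted p = 0.104). DESeq2 called *Gja1* alone (adjusted p = 0.000222), against 2.15% of all genes, and so did edgeR with library totals (adjusted p = 0.00465), against 2.12%. The 3 genes whose log2 CPM followed *Gja1* most closely over the 8 libraries were *Bloc1s2* (r = 0.986), *Glrx* (r = 0.971), and *Gemin7* (r = 0.962). *Glrx* (glutaredoxin) had 18.2 CPM in the WT and 51.1 CPM in the TKO left ventricle, and 15.6 to 27.6 CPM in the other 6 libraries. For *Gja5* they were *Pbk*, *Tacc3*, and *Ccnb2* (r = 0.982, 0.976, and 0.955), and for *Gjc1* *Nts*, *Med11*, and *Bbs5* (r = 0.986, 0.971, and 0.971). These were the highest of 12999 genes over 8 libraries, and *Pbk* and *Nts* were near 1 CPM.

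The size of the fall from the left ventricle to the infarct zone was read within each genotype. In WT, 7 of 10 members were at least 2-fold lower in the infarct zone, against 14.8% of all genes. In TKO 2 of 10 were, *Dsc2* and *Gja1*, against 7.62%. The TKO count turns on the cutoff, since *Dsg2* and *Cdh2*, both at 0.504-fold, missed it narrowly and had counting intervals that held it. *Dsp* was 0.268-fold in WT (0.263 to 0.274) and 0.599-fold in TKO (0.588 to 0.609), and *Dsg2* was 0.268-fold (0.249 to 0.288) and 0.504-fold (0.472 to 0.538). *Dsc2* was 0.402-fold (0.361 to 0.447) in WT and 0.387-fold (0.352 to 0.424) in TKO, so its intervals overlapped. *Gja1* was 0.931-fold in WT and 0.417-fold in TKO. The median over the 10 members was 0.409-fold (WT) and 0.566-fold (TKO). With library totals the medians were 0.725-fold and 0.822-fold, and *Gja1* was at 1.65-fold in WT.

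Against the border zone, 6 of 10 members in WT were at least 2-fold lower in the infarct zone, against 10.3% of all genes, and 1 of 10 in TKO, against 3.18%. Against the remote zone, the counts were 7 of 10 in WT, against 12.7%, and 2 of 10 in TKO, against 4.12%. *Dsg2* was the lowest member against the remote zone in both genotypes, at 0.271-fold in WT and 0.400-fold in TKO. *Gja5* and *Gjc1* stayed between 0.992-fold and 1.31-fold in these 4 comparisons. The cardiomyocyte markers had a median of 0.256-fold of the left ventricle in the WT infarct zone and 0.485-fold in the TKO infarct zone.

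**Figure D5:**
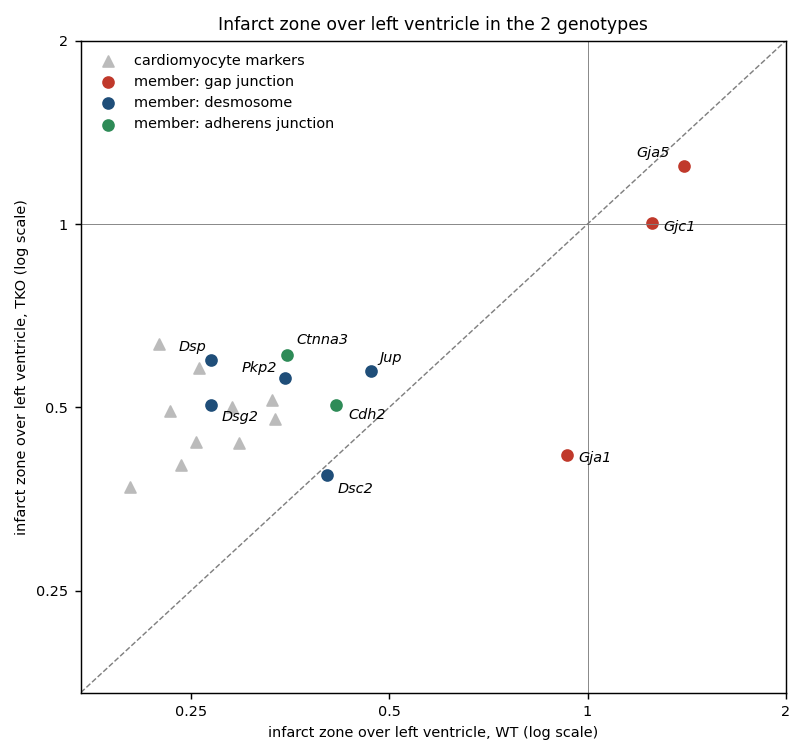
Infarct zone over left ventricle in WT (x axis, log scale) and TKO (y axis, log scale) for the members (circles) and the cardiomyocyte markers (grey triangles), with 1 point per gene and a dashed line of equal ratios. *Dsp*, *Dsg2*, *Pkp2*, and *Ctnna3* lie above the line beside the markers, *Dsc2* lies near it at 0.402 and 0.387, and *Gja1* lies well below it at 0.931 and 0.417.

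The members lie on several chromosomes of GRCm38, placed through their Ensembl identifiers in GENCODE vM21. *Gja5* spans chr3:96904693-97077416 on the plus strand, *Gja1* chr10:56377330-56402513 on the plus strand, and *Gjc1* chr11:102799579-102819700 on the minus strand. *Dsp* spans chr13:38151294-38198577 (plus), *Pkp2* chr16:16213318-16272712 (plus), *Jup* chr11:100368958-100397763 (minus), and *Ctnna3* chr10:63430098-65003667 (plus). *Dsc2*, *Dsg2*, and *Cdh2* lie together on chromosome 18, at 20030633 to 20059554, 20558074 to 20604521, and 16588877 to 16809246. *Gja5* overlaps *Gpr89* (up to 539 counts) on the opposite strand, and its own counts were 155 to 335. This overlap is of whole gene spans, while the counts were estimated on transcripts. Whether transcripts of the overlapping genes share sequence was not checked, and whether counting used strand is not given in the sources used here.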

How the data were processed

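Bulk RNA-seq of 8 mouse heart libraries was used, 1 per genotype and region. Per the labels and methods, the authors trimmed reads with Trim Galore 0.6.5, estimated transcript abundance with Kallisto 0.46 on mm10 (GRCm38), and collapsed it to gene level through tximport. The deposited estimated counts are whole numbers without normalization. The submitters' notes also name edgeR 3.34.1. The members and gene lists were chosen with earlier results of these data known.

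Counts were analyzed in R 4.3.3 with edgeR 4.0.16 (TMM, quasi-likelihood test, Benjamini-Hochberg adjustment over genes averaging at least 1 CPM, calls at an adjusted p under 0.05), and with DESeq2 1.42.0 as an alternative. Fits were tested on simulated data. Ratios of 2 libraries carry exact binomial (Clopper-Pearson) 95% intervals, which cover counting error only, and 2-fold counts used a prior count of 2. Counts of 3 or fewer were taken as the floor. All members were named, with the 3 highest and 3 lowest other disc genes, each other connexin and pannexin with at least 1 CPM, and the 3 genes most correlated with each connexin over log2 (CPM + 0.1). Some genes that this rule covers are not reported here. Alternatives were library totals, DESeq2 size factors, low-count filters, left-out libraries, and no genotype block. Regions were treated as replicates of a genotype and genotypes as replicates of a region. The p-values therefore rest on how far libraries departed from the fitted genotype and region effects, and not on a spread between replicates.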

Additional observations from a re-analysis of the deposited data

Results flagged for a closer look

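For 5 of 10 members, a region stood on opposite sides of the left ventricle in the 2 genotypes, with both 95% counting intervals off 1. The share of all genes that did so is not given here. The intervals cover counting error only, so a gene with many counts passed at a small ratio, such as *Dsp* in the TKO border zone (1.001 to 1.034). *Gja1* was 1.69-fold in the WT and 0.506-fold in the TKO border zone, and 1.89-fold and 0.550-fold in the remote zones. *Dsp* was 0.799-fold and 1.02-fold in the border zones and 0.751-fold and 1.03-fold in the remote zones. *Dsg2* was 0.806-fold and 1.08-fold in the border zones. *Gjc1* was 1.18-fold and 0.842-fold, and *Dsc2* 1.10-fold and 0.801-fold, in the remote zones. These pairs were not tested one by one. All of them share the left ventricle libraries, for which the genotype by left ventricle term called none of the 10 members with edgeR and *Gja1* with DESeq2.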

How the results depend on the processing

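The 7 members called lower in the infarct zone against the left ventricle stayed called with DESeq2 size factors, DESeq2, no filter, and no genotype block, and 7 to 8 members were called when 1 library was left out. With a filter of 5 CPM, *Gja5* was also called, higher. When a library or region was left out, directions turned for genes that were not called. *Gja1* against the left ventricle ranged from -1.45 to 0.11, and *Gjc1* from -0.004 to 0.33. Across genotypes, *Gja1* ranged from -0.016 to 0.57, *Pkp2* from -0.011 to 0.26, and *Gjc1* from -0.14 to 0.019. With library totals, the genotype by infarct zone term was -0.22 for *Gja1*, -0.17 for *Gja5*, and -0.014 for *Dsc2*, the genotype by left ventricle term was 0.12 for *Jup*, *Jup* in the border zone was at 0.986, and *Gja1* in the WT infarct zone was at 1.65. The medians of members moved with totals to 1.21 (TKO over WT, infarct zone), 0.954 (border zone), 0.725 (infarct zone over left ventricle, WT), and 0.822 (TKO). With the marker median in place of the mean, the members' median against cardiomyocyte markers in the WT infarct zone was 0.75 on the log2 scale. DESeq2 called 2 members in the genotype by infarct zone term and 1 in the genotype by left ventricle term, and totals called 1 in the latter. The cause of these differences was not tested.

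Counts over all genes depended on the tool. edgeR and DESeq2 called 18 and 342 genes for genotype, 93 and 576 for the border zone, 0 and 162 for the remote zone (1378 and 1117 at an unadjusted p under 0.05), 1 and 288 for the genotype by infarct zone term, and 84 and 280 for the genotype by left ventricle term. With library totals, 56, 200, and 18 genes were called for genotype, border zone, and remote zone, and 275 for the genotype by left ventricle term. Leaving out a region gave 3 to 80 genes for genotype. Leaving out a library gave 1 to 388 genes for the border zone and 0 to 65 for the remote zone. No paired analysis was possible because each group holds 1 library with no replicate number, and the pairing by region or genotype is already in the fits. Groups of 1 library give no error between mice, which limits every ratio here.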
